A study of Mus musculus with 22 samples.

Results

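The D cyclins (Ccnd1, Ccnd2, Ccnd3), their kinase partners (Cdk4, Cdk6) and the inhibitors of cyclin-dependent kinases Cdkn1a (p21), Cdkn1b (p27), Cdkn2a (p16INK4a and p19ARF), Cdkn2c (p18INK4c) and Cdkn2d (p19INK4d) were followed in mouse fetal liver stem cells cultured with or without a blocker of gamma-secretase. The 10 genes were chosen by name, as the entry point of the cell cycle, from 22180 genes with a probe that names 1 gene, and each of the 10 had 1 such probe. Fetal liver cells of C57BL/6J embryos at E14.5 were kept on the stromal line OP9-DL1, which presents the Notch ligand Dll1, and received either a gamma-secretase inhibitor (GSI) at 1 µM, which stops the cleavage that activates Notch, or the solvent DMSO. Culture lasted 4 h or 10 h. Cells with the surface phenotype SLAM LSK (lineage-negative, Sca-1+, Kit+ and selected on SLAM family receptors, a stem cell gate) were then sorted and their RNA was hybridised to 1-colour arrays. There were 7 DMSO and 7 GSI arrays at 4 h and 4 DMSO and 4 GSI arrays at 10 h, and each biological replicate was a DMSO and GSI pair. All groups were wild type and shared the stroma, so none was free of Notch ligand. No group was left uncultured, and whether pairs came from separate litters is not given in the sources used here.

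D cyclins are made in response to growth signals and bring Cdk4 or Cdk6 into an active kinase that phosphorylates the retinoblastoma protein and its relatives, which releases E2F factors and lets a cell leave G1. The INK4 proteins (from Cdkn2a, Cdkn2c, Cdkn2d and Cdkn2b) bind Cdk4 and Cdk6 and keep cyclin D out, whereas p21 and p27 bind assembled cyclin and kinase complexes and block Cdk2 most strongly. In blood stem cells this balance sets how often a cell leaves quiescence: p18, p21 and p27 are known as brakes on cycling, p21 is the classical target of p53, and Cdk6 is held low in quiescent stem cells. In T cell progenitors and T cell leukaemia, D cyclins and Cdk6 are among the genes that respond to Notch.

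Of the start-site windows in the RefSeq table (build GRCm38.p6, 250 bases before and 50 after a start), 12 belonged to 8 of the 10 genes. Ccnd1 and Ccnd2 had no window. The 3 windows below belong to Cdk4, Cdk6 and Cdkn1a. In Cdk4 and Cdk6, capitals mark CACGTG, the E-box bound by Myc and its relatives. In Cdkn1a, capitals mark the paired core letters of a p53 element, CATGNNNNNNCATG, a pattern spelled out after this window had been read.

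Cdk4, chr10:127063285-127063584, plus strand: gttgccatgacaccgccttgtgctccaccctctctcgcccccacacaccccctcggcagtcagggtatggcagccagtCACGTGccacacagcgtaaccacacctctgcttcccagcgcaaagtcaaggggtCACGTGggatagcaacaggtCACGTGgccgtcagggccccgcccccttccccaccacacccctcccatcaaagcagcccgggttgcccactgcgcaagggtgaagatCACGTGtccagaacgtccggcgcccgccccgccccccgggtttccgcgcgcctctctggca
Cdk6, chr5:3343643-3343942, plus strand: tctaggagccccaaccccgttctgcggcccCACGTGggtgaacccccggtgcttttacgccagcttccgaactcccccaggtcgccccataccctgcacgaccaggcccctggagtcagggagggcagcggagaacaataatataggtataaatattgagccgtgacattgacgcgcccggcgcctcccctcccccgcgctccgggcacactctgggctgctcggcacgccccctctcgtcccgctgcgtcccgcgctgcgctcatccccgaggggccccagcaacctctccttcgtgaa
Cdkn1a, chr17:29090729-29091028, plus strand: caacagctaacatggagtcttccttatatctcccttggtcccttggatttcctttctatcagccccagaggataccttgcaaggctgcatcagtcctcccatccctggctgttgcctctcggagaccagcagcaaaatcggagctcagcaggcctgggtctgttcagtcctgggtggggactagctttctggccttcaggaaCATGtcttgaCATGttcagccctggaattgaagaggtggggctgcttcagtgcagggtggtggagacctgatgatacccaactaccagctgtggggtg

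The Cdk4 window held 4 E-boxes and the Cdk6 window 1. Among all 32841 windows of this length, 7.15% held an E-box on either strand (the letters read the same on both), and among the 12 windows here 3 did, the other being one of Cdkn2c. The p53 pattern was found in 0.713% of all windows, and of the 12 only in the Cdkn1a window shown, at the more upstream of the 2 Cdkn1a starts. The letters GTGGGAA, read by the Notch partner RBPJ, were on either strand in 6.38% of all windows and in 0 of the 12. Ccnd1 and Ccnd2, without a window, were not searched. The E2F letters GCGGGAA were in 4.60% of all windows and in 2 of the 12, 1 of Cdkn2a and 1 of Cdkn2c. A match of letters is a description of the sequence and does not show that a factor binds there, and absence in a window of this length says nothing about the rest of the gene.

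Values were log2 levels as deposited. Array medians were 5.03 to 5.12 at 4 h and 4.45 to 4.52 at 10 h, so levels at the 2 times are not on one distribution, and differences between times below were taken after quantile normalisation of all 22 arrays. By the codes in the sample descriptions, run 1 held pair 1 of the 4 h cultures, run 2 held pairs 2 and 3, and run 3 held pairs 4 to 7. Of the 10 h cultures, run 4 held pairs 1 and 2 and run 5 the remaining pairs. What a run stands for is not stated, and time and run cannot be told apart. Kit, the receptor used in the sort, was at 9.97 in the DMSO arrays at 4 h and 9.14 at 10 h, whereas Slamf1, which encodes CD150, was at 3.98, below the array medians, and at 4.74, near them. Procr, another stem cell marker, was at 9.18 and 6.92.

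Hes1, the Notch target that served as a check of the inhibitor, fell in all 11 pairs, by 0.97 ± 0.09 on the log2 scale at 4 h (SE; limma adjusted p = 0.000199) and by 1.36 ± 0.12 at 10 h (adjusted p = 4.7e-05). At 4 h it was the 1 gene of 22180 that passed an adjusted p of 0.05 (0.00451% of genes).

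**Figure D1:**
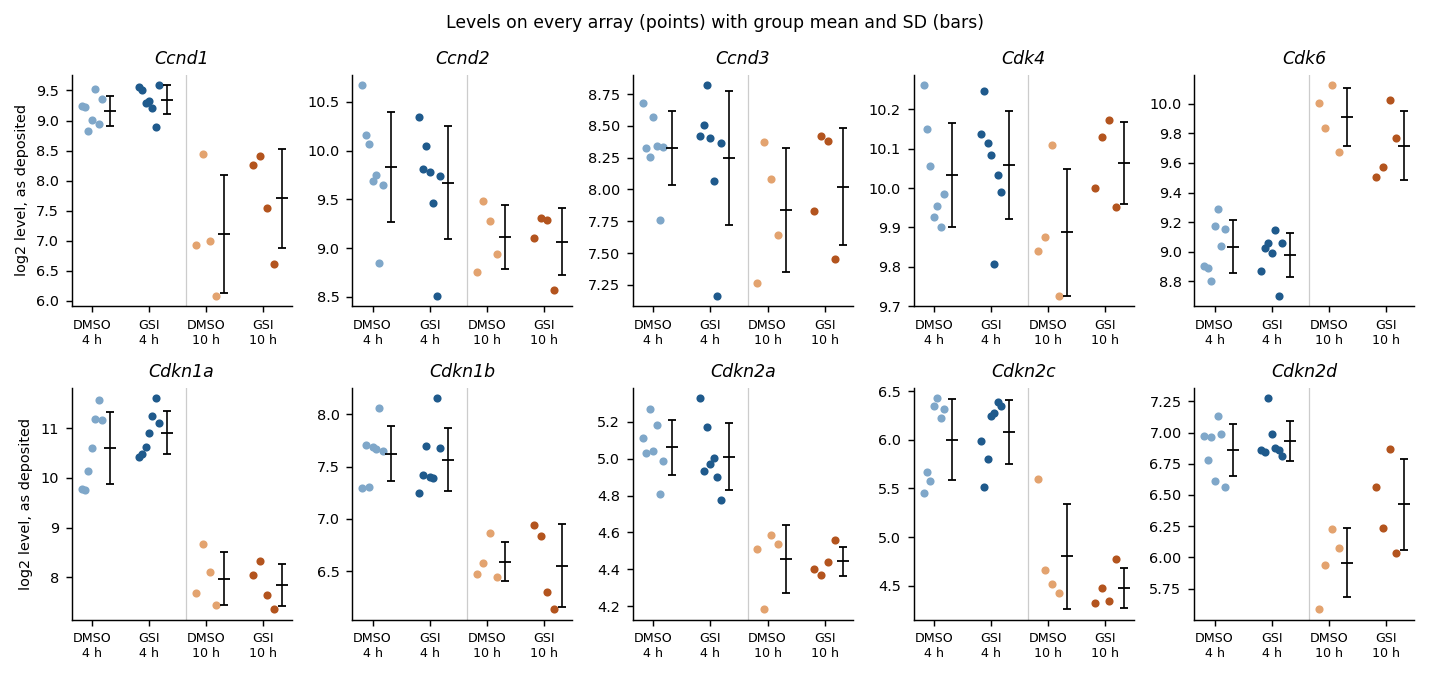
Level of each of the 10 genes (log2, as deposited, vertical axis) on every array of the 4 groups, with group mean and SD beside the points. Cdk6 is higher on all 8 arrays at 10 h than on all 14 at 4 h, as are 0.338% of all genes on this scale. Cdkn1a is lower on all 8, as are Ccnd1, Cdkn1b, Cdkn2a and 28.2% of all genes. The vertical axes differ between genes, and levels of different probes are not comparable.

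None of the 10 genes passed the test for an effect of GSI at 4 h or 10 h, in the mean of both times or in the difference between times. The share of all genes called at 10 h was 0.667% (0.555% upward and 0.113% downward), that in the mean was 0.32% (0.266% higher and 0.0541% lower) and that in the difference 0.018% (0.018% higher and 0% lower), while at 4 h 0% were higher. At 10 h the smallest unadjusted p values among the 10 belonged to Ccnd1, Cdkn2d and Cdk4, each with a positive estimate. At 4 h the smallest belonged to Cdkn1a. The median GSI difference of the 10 genes was -0.01 at 4 h and -0.03 at 10 h, beside 0.01 and -0.01 for all genes.

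Among the D cyclins, Ccnd1, the one most widely used outside blood, had the largest GSI estimate. At 10 h it was at 6.93, 8.44, 7.00 and 6.08 in the DMSO arrays of pairs 1 to 4 and at 8.26, 8.40, 7.55 and 6.61 in their GSI partners. The pair differences were 1.33, -0.04, 0.54 and 0.53, so GSI was the higher partner in 3 of 4 pairs, while the 2 groups overlapped broadly. The estimate was 0.59 ± 0.16 (SE), which did not pass (limma adjusted p = 0.107). After quantile or loess normalisation the estimate was 0.50. It depended on single pairs: it was 0.80 with an adjusted p of 0.0356 without pair 2, the pair with no difference, and 0.34 without pair 1. At 4 h Ccnd1 ran from 8.83 through a median of 9.22 to 9.52 in DMSO and from 8.90 through 9.33 to 9.59 in GSI, and the estimate was 0.18 ± 0.12 (adjusted p = 0.999). GSI was higher in 5 of these 7 pairs, and the ranges overlapped almost completely. The mean over both times was 0.39 ± 0.10 (adjusted p = 0.122), and without the 10 h pair 2 it was 0.49 and passed (adjusted p = 0.0363).

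At 10 h Ccnd1 was also the gene with the widest scatter of the 10. Its SD was 0.98 over the DMSO arrays at 10 h, larger than that of 99.1% of genes, and 0.82 over the GSI arrays, larger than that of 98.8% of genes. At 4 h its SD was 0.24 in both groups. Among the 10 h DMSO cultures Ccnd1 was highest in pair 2 and lowest in pair 4. So was the mean level of 6 endothelial markers, at 7.52, 8.25, 6.77 and 6.05 in pairs 1 to 4, and that of 15 markers of the OP9 stroma, at 6.05, 6.81, 5.91 and 5.48. No marker of either list was listed at 0. Between partners the endothelial mean differed by 0.25, -0.56, -0.39 and -0.07, highest in pair 1 and lowest in pair 2 as the Ccnd1 difference was, and the stroma mean differed by 0.11, -0.70, -0.74 and -0.43, also highest in pair 1. Both marker means were lower with GSI in 3 of 4 pairs, and Ccnd1 was higher in 3 of 4. The stroma markers were lower with GSI at 10 h in 14 of 15 cases, with a median of -0.39, and 1 of them passed (Cd248, a call lost without pair 1, 3 or 4). The part of other cells' RNA in the scatter or the GSI difference of Ccnd1 was not tested. In sorted bulk RNA, fewer cells of a type and less RNA per cell cannot be told apart.

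**Figure D2:**
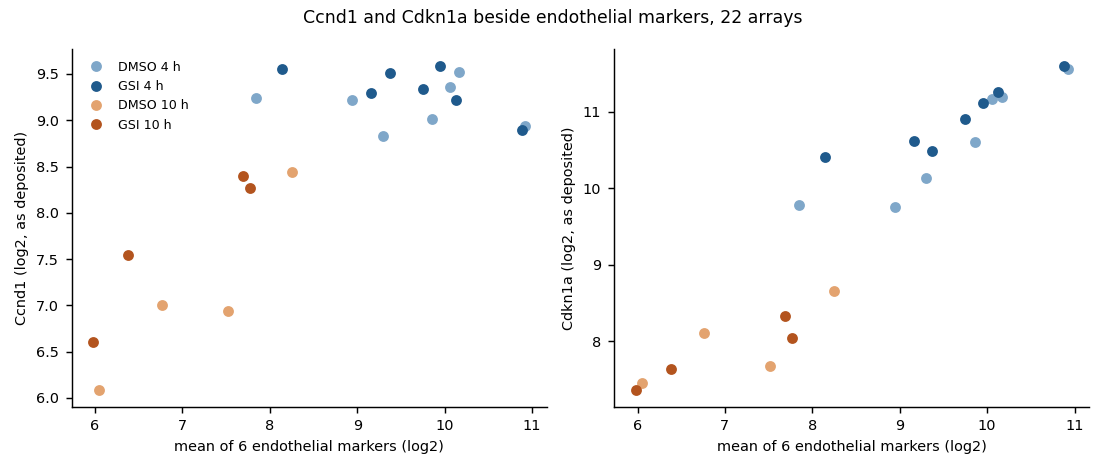
Ccnd1 (left) and Cdkn1a (right) on each of the 22 arrays (log2 levels as deposited, vertical axes) against the mean level of 6 endothelial markers on the same array (horizontal axes), coloured by group. At 10 h the 3 arrays with Ccnd1 above 8 also have the 3 highest marker means, while at 4 h it stays between 8.83 and 9.59 across marker means from 7.84 to 10.9.

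Ccnd2, the D cyclin best known as a mitogen-induced gene of blood cells, showed no GSI difference beyond the spread. At 4 h it ran from 8.84 through a median of 9.75 to 10.7 in DMSO and from 8.51 through 9.78 to 10.3 in GSI. GSI was the lower partner in 5 of 7 pairs, and the estimate was -0.16 ± 0.08 (adjusted p = 0.999). At 10 h the DMSO arrays were at 8.76, 9.49, 9.27 and 8.93 and the GSI arrays at 9.10, 9.31, 9.28 and 8.57. The pair differences there took both signs, and the estimate was -0.05 ± 0.11.

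Ccnd3, the D cyclin used in lymphoid and erythroid growth, likewise overlapped between treatments at both times. Its 4 h range was 7.76 to 8.68 in DMSO (median 8.34) and 7.16 to 8.82 in GSI (median 8.40), with an estimate of -0.07 ± 0.12. At 10 h DMSO was at 7.26, 8.37, 8.08 and 7.64 and GSI at 7.83, 8.42, 8.38 and 7.46, with an estimate of 0.18 ± 0.15 (adjusted p = 0.634). GSI was the higher partner in 3 of those 4 pairs.

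Cdk4 varied little, with SDs of 0.10 to 0.16 in the 4 groups. At 10 h it was at 9.84, 9.88, 10.11 and 9.73 in DMSO and at 10.00, 10.13, 10.17 and 9.95 in GSI. GSI was the higher partner in all 4 pairs, by 0.16, 0.25, 0.06 and 0.22, as it was for 8.47% of all genes. The estimate of 0.18 ± 0.07 had an unadjusted p of 0.0173 and did not pass over all genes (adjusted p = 0.237). It was 0.12 after quantile and 0.10 after loess normalisation. At 4 h the ranges were 9.90 to 10.26 in DMSO (median 9.98) and 9.81 to 10.25 in GSI (median 10.08), with an estimate of 0.03 ± 0.05.

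Cdk6, the kinase partner that predominates in blood stem and progenitor cells, had a negative GSI estimate that did not pass. At 10 h it was at 10.00, 9.83, 10.13 and 9.68 in DMSO and at 9.50, 9.57, 10.03 and 9.77 in GSI. GSI was lower in pairs 1 to 3 and higher in pair 4, and the groups overlapped. The estimate was -0.19 ± 0.10 (adjusted p = 0.411), without pair 1 it was -0.09, and within run 5 -0.01. It was larger in size within run 4 (-0.38), without pair 4 (-0.29) and after quantile (-0.23) or loess normalisation (-0.28), and passed in none of these. At 4 h it was -0.05 ± 0.08.

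Among the inhibitors, Cdkn1a gave the smallest p at 4 h. Its DMSO arrays were at 9.79, 9.76, 10.14, 10.61, 11.19, 11.56 and 11.17 in pairs 1 to 7, and its GSI arrays at 10.41, 10.49, 10.62, 10.90, 11.25, 11.60 and 11.11. In pairs 1 to 3 GSI exceeded DMSO by 0.63, 0.73 and 0.48 and in pair 4 by 0.29, whereas pairs 5 to 7 differed by 0.06, 0.04 and -0.06. The estimate was 0.31 ± 0.10 with an unadjusted p of 0.00828, and it did not pass over all genes (adjusted p = 0.999). Within run 2 (pairs 2 and 3) the estimate was 0.61 and passed (adjusted p = 0.00423), and within run 3 (pairs 4 to 7) it was 0.08 and did not (adjusted p = 0.880). Run 1 held a single pair.

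The pairs with the larger GSI difference were those with the lower DMSO level of Cdkn1a. The DMSO level is subtracted in that difference, so scatter in it alone can give such a relation, and no conclusion is drawn from it. The mean of 9 other p53 targets was also lower in the DMSO arrays of pairs 1 to 3, at 6.90, 6.84 and 7.15. In those of pairs 4 to 7 it was between 7.31 and 7.94. Endothelial markers did the same, at 7.84 to 9.30 in pairs 1 to 3 and 9.86 to 10.9 in pairs 4 to 7. Between partners the p53 targets differed by 0.14 to 0.21 in pairs 1 to 4 and by -0.08 to -0.05 in pairs 5 to 7. The endothelial mean differed by 0.30, 0.43, -0.14, -0.11, -0.04, -0.04 and -0.11 in pairs 1 to 7, so it was lower with GSI in pairs 3 and 4, where Cdkn1a was higher. The part of run, p53 targets or endothelial RNA in the Cdkn1a difference was not tested.

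At 10 h Cdkn1a was at 7.68, 8.66, 8.11 and 7.45 in DMSO and at 8.04, 8.33, 7.64 and 7.36 in GSI, lower with GSI in 3 of 4 pairs. The estimate of -0.14 ± 0.14 did not pass (adjusted p = 0.702). The change in the GSI effect from 4 h to 10 h was -0.45 ± 0.17 and did not pass either (adjusted p = 0.453), so the 2 times are not shown to differ.

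Cdkn1b, the inhibitor whose protein is controlled largely by degradation, had pair differences of both signs at both times. At 10 h DMSO was at 6.48, 6.58, 6.86 and 6.45 and GSI at 6.95, 6.83, 6.30 and 6.14. GSI was higher in both pairs of run 4 and lower in both pairs of run 5, and the estimate was -0.04 ± 0.15. At 4 h the medians were 7.67 in DMSO and 7.42 in GSI within ranges of 7.29 to 8.06 and 7.25 to 8.15, and the estimate was -0.06 ± 0.12.

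Of the INK4 genes, Cdkn2d came nearest to passing. At 10 h it was at 5.59, 5.94, 6.23 and 6.08 in DMSO and at 6.56, 6.23, 6.87 and 6.03 in GSI. GSI was the higher partner in 3 of 4 pairs, with differences of 0.98, 0.30, 0.64 and -0.04, and the groups overlapped. The estimate was 0.47 ± 0.15, with an unadjusted p of 0.00679 and an adjusted p of 0.163. The estimate was 0.39 after quantile or loess normalisation and 0.30 without pair 1 (adjusted p = 0.473). At 4 h it was 0.07 ± 0.11.

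Cdkn2c, whose loss is known to expand blood stem cells, was decided by 1 array at 10 h. DMSO was at 5.60, 4.66, 4.52 and 4.43 and GSI at 4.32, 4.47, 4.34 and 4.77. The DMSO array of pair 1 stood above the other 7, which were near the array medians of 4.45 to 4.52. The pair differences were -1.28, -0.19, -0.17 and 0.35. The estimate was -0.32 ± 0.19 (adjusted p = 0.472), and -0.01 without pair 1. At 4 h it was 0.08 ± 0.14.

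Cdkn2a sat near the array median throughout, between 4.77 and 5.33 at 4 h and between 4.18 and 4.59 at 10 h. Its single probe cannot separate the p16INK4a and p19ARF transcripts. The GSI estimates were -0.05 ± 0.08 and -0.01 ± 0.10.

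**Figure D3:**
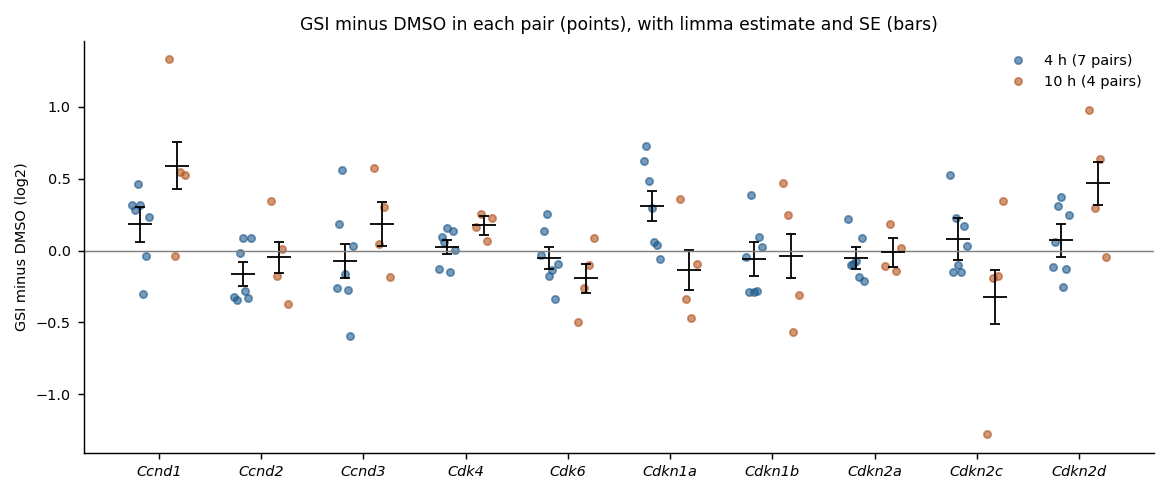
GSI minus DMSO (log2, vertical axis) in each of the 7 pairs at 4 h and 4 pairs at 10 h for the 10 genes, with the limma estimate and its SE as bars. The largest single differences, Ccnd1 at 1.33 and Cdkn2c at -1.28, both belong to pair 1 at 10 h, and no estimate passed the test.

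Other genes of the pathway were read from lists of its steps. At 4 h 0 of their 43 measured genes passed with GSI, and at 10 h 1 did, Ambra1, the substrate receptor of a ubiquitin ligase that degrades D cyclins. Ambra1 was at 6.34, 7.06, 7.01 and 6.29 in the 10 h DMSO arrays and at 7.10, 7.41, 7.39 and 7.02 in their GSI partners, higher in all 4 pairs. It rose by 0.56 ± 0.11 (adjusted p = 0.0382), and by 0.36 ± 0.07 in the mean of both times (adjusted p = 0.0387). The 10 h call was lost without pair 1 (0.49, adjusted p = 0.142) or pair 4 (0.50, adjusted p = 0.128), after quantile normalisation (0.46, adjusted p = 0.0884) and with no pair block (adjusted p = 0.693), and the call for the mean was lost on leaving out any of 8 of the 11 pairs. In the same comparison 2 of the 5 measured markers of the stem cell sort rose, Hlf by 0.73 ± 0.13 (adjusted p = 0.0236) and Mecom by 0.82 ± 0.17 (adjusted p = 0.0436). Kit (0.16 ± 0.09), Slamf1 (0.23 ± 0.13) and Procr (-0.05 ± 0.11) did not pass. The calls of Hlf and Mecom were each lost without pair 1, 2 or 4 and with no pair block. Mecom was read here from 1 probe, and its other probe turned its time difference in DMSO, given below, to 1.14.

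The remaining pathway lists, the proliferation genes and the p53 targets held no call with GSI at 10 h. Of the 7 measured genes of the cyclin E and Cdk2 step the smallest p was that of Cdk7, a kinase that activates other cyclin-dependent kinases, at 0.44 ± 0.12 (adjusted p = 0.101). Of the 13 pocket protein and E2F genes it was that of E2f8 at 0.27 ± 0.11 (adjusted p = 0.282), and of the 3 other inhibitors that of Cdkn2b, p15INK4b, at -0.58 ± 0.16 (adjusted p = 0.102). Of 10 upstream regulators it was that of Foxo3, a transcription factor held out of the nucleus by growth signals, at -0.28 ± 0.11 (adjusted p = 0.263). Proliferation genes (0 of 11) had a median GSI difference of 0.09 and p53 targets (0 of 9) one of 0.04.

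Between 4 h and 10 h Cdk6 rose, and Cdkn1a and Ccnd1 fell, in both treatments. In GSI Cdk4 also rose and Cdkn2c fell. That is 3 of the 10 genes in DMSO, against 33.9% of all genes (18.7% higher and 15.2% lower), and 5 of the 10 in GSI, against 36.1% (19.1% higher and 17% lower), so the share of the 10 genes is near the background. The median time difference of the 10 genes was -0.26 in DMSO and -0.10 in GSI, beside 0.04 and 0.03 over all genes.

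On the quantile scale Cdk6 in DMSO ran from 8.66 through a median of 8.80 to 9.11 at 4 h and was at 10.23, 10.04, 10.26 and 10.01 at 10 h. In GSI it ran from 8.48 through 8.85 to 8.98 at 4 h and was at 9.72, 9.80, 10.16 and 9.94 at 10 h. Every 10 h array lay above every 4 h array, which held for 5.87% of genes. The rise was 1.26 ± 0.11 in DMSO (2.40-fold, limma adjusted p = 2.5e-05) and 1.09 ± 0.11 in GSI (2.13-fold, adjusted p = 6.1e-05). Cdk6 was also higher on the deposited scale, where most genes are lower at 10 h: there the rise was 0.88 in DMSO and 0.74 in GSI, and only 0.338% of genes had every 10 h array above every 4 h array.

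Cdk4 moved little by comparison. Its 4 h levels on the quantile scale ran from 9.75 through 9.84 to 10.14 in DMSO and from 9.69 through 9.97 to 10.14 in GSI, and its 10 h levels were 10.08, 10.07, 10.25 and 10.06 in DMSO and 10.19, 10.32, 10.29 and 10.11 in GSI. The difference was 0.21 ± 0.09 in DMSO (adjusted p = 0.104) and 0.30 ± 0.09 in GSI, which passed (adjusted p = 0.0192). The call in GSI was lost on the deposited scale (0.00, adjusted p = 0.966) and without the 10 h GSI array of pair 2 (adjusted p = 0.0598) or of pair 3 (adjusted p = 0.0576). In DMSO the estimate was -0.15 on the deposited scale, and 0.46 with an adjusted p of 0.00243 where array medians were subtracted, so the direction of Cdk4 depends on the scaling.

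Cdkn1a fell the most. In DMSO it ran from 9.64 through 10.501 to 11.52 at 4 h on the quantile scale and was at 8.07, 8.94, 8.38 and 7.93 at 10 h. In GSI it ran from 10.27 through 10.87 to 11.57 at 4 h and was at 8.34, 8.60, 7.88 and 7.67 at 10 h. No 10 h array reached any 4 h array, as was the case for 4.78% of genes, and it fell by 2.18 ± 0.36 in DMSO (4.53-fold, adjusted p = 0.00100) and fell by 2.71 ± 0.24 in GSI (6.56-fold, adjusted p = 2.3e-05). Other p53 targets fell in the same comparison, 7 of 9 in each treatment (medians -0.80 and -0.99), among them Trp53inp1 (-2.03 ± 0.28 and -1.85 ± 0.17) and Sesn2 (-2.09 ± 0.36 and -1.997 ± 0.26). Mdm2, the ligase that degrades p53, fell by 0.80 ± 0.25 and 1.00 ± 0.13.

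Markers of the sort and of other cells moved with time as well. Of 5 stem cell markers Slamf1 rose in both treatments (1.32 ± 0.15 in DMSO and 1.53 ± 0.17 in GSI), Procr fell in both (-1.70 ± 0.20 and -1.91 ± 0.26) and Mecom fell in DMSO (-1.09 ± 0.22, though its other probe gave 1.14), with list medians of -0.72 and -0.48. Of 4 genes of the gated-out cells Cd48, the SLAM receptor absent from the sorted phenotype, rose in both (1.93 ± 0.38 and 2.10 ± 0.31), and Cd3e fell in GSI (-0.36 ± 0.09). Endothelial markers fell in 5 of 6 cases in DMSO and 6 of 6 in GSI (medians -2.001 and -2.33), and their mean level as deposited went from between 7.84 and 10.9 at 4 h to between 5.98 and 8.25 at 10 h. Stroma markers fell in 3 and 10 of 15 (medians -0.46 and -1.003; level means of 6.53 to 8.01 at 4 h and 5.05 to 6.81 at 10 h). Hepatocyte markers fell in 5 and 3 of 7 and macrophage markers in 3 and 5 of 9, and no marker was listed at 0. The part of all these markers in the time differences of Cdk6, Cdkn1a and Ccnd1 was not tested.

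Ccnd1 fell by 1.495 ± 0.30 in DMSO (2.82-fold, adjusted p = 0.00312) and by 1.18 ± 0.28 in GSI (2.26-fold, adjusted p = 0.00605). On the quantile scale it ran from 8.69 through 9.09 to 9.37 in DMSO at 4 h and was at 7.37, 8.72, 7.32 and 6.61 at 10 h. In GSI it ran from 8.67 through 9.21 to 9.45 at 4 h and was at 8.57, 8.68, 7.80 and 6.98 at 10 h. The 10 h array of pair 2 reached the 4 h range in both treatments, and the other 10 h arrays did not. Leaving out single arrays moved the fall between 1.20 and 1.90 in DMSO and between 0.83 and 1.40 in GSI, and every one of these values passed.

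Cdkn2c fell by 0.96 ± 0.18 in GSI (1.95-fold, adjusted p = 0.00180). Every 10 h GSI array (4.69, 4.86, 4.76 and 5.19) was below the 4 h range of 5.26 to 6.24, as was the case for 10.9% of genes. Their deposited levels of 4.32 to 4.77 were near the medians of these arrays, 4.45 to 4.48. In DMSO the estimate was -0.55 ± 0.28 and did not pass (adjusted p = 0.140). The DMSO array of pair 1, at 6.09, lay within the 4 h range of 5.18 to 6.20, and without it the estimate was -0.85 and passed (adjusted p = 0.0256). The difference between the treatments in this change was read as the change in the GSI effect, from the paired fit of deposited values. It was -0.40 ± 0.24 and did not pass (adjusted p = 0.618). Its scale and fit differ from those of the time estimates in this paragraph.

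The other 5 genes did not pass in either treatment. Cdkn1b came nearest, at -0.41 ± 0.16 in DMSO (adjusted p = 0.0624) and -0.43 ± 0.20 in GSI (adjusted p = 0.113). In DMSO it passed with loess normalisation (adjusted p = 0.0487) and with no intensity trend (adjusted p = 0.0449). It also passed there without the 4 h DMSO array of pair 1 (adjusted p = 0.0343) or of pair 3 (adjusted p = 0.0398). As deposited Cdkn1b passed in both treatments. Ccnd2 was at -0.30 ± 0.28 and -0.23 ± 0.29, Ccnd3 at 0.04 ± 0.20 and 0.22 ± 0.27, Cdkn2d at -0.23 ± 0.16 and 0.10 ± 0.15, and Cdkn2a at 0.00 ± 0.11 and 0.04 ± 0.10. As deposited, Ccnd3 was at -0.49 in DMSO and -0.23 in GSI and did not pass there either. On the deposited scale the all-gene median was -0.41 in DMSO and -0.42 in GSI, and 8 and 7 of the 10 genes passed there, 1 higher and the others lower in each. All genes then split into 464 higher and 12884 lower in DMSO and 470 and 14425 in GSI, against 4155 and 3368, and 4226 and 3775, after quantile normalisation. Subtraction of array medians gave 8183 higher and 2768 lower in DMSO and 8346 and 2928 in GSI.

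**Figure D4:**
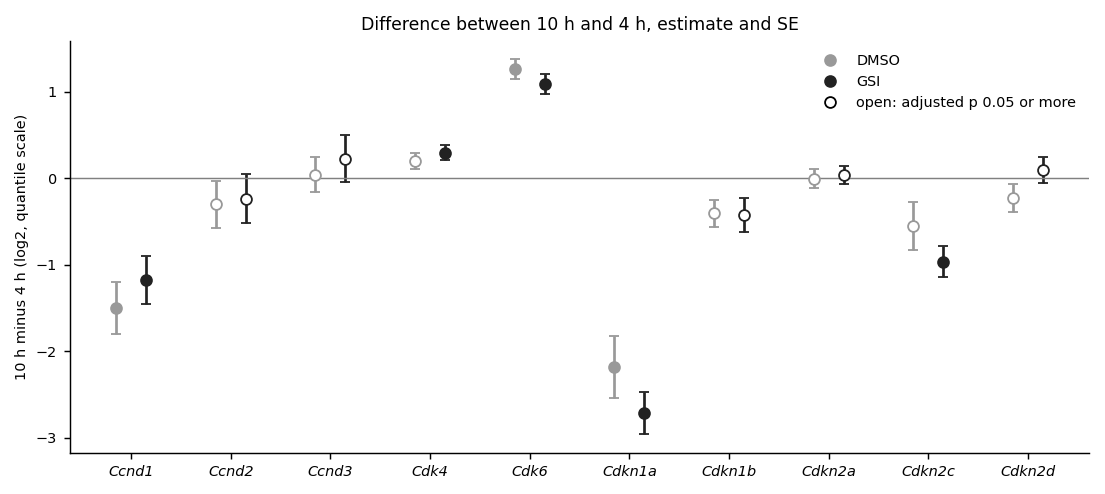
Difference between 10 h and 4 h (log2 after quantile normalisation, vertical axis) in DMSO (grey) and GSI (black), as limma estimate with SE; filled points have an adjusted p under 0.05. Cdk6 is the largest rise and Cdkn1a the largest fall among the 10 genes in both treatments, while Cdk4 and Cdkn2c are filled in GSI alone.

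By group mean on the quantile scale, Cdk6 ranked DMSO 10 h (10.14 ± 0.13, SD), GSI 10 h (9.91 ± 0.19), DMSO 4 h (8.87 ± 0.17) and GSI 4 h (8.81 ± 0.17). For Cdkn1a the order was GSI 4 h (10.84 ± 0.46), DMSO 4 h (10.51 ± 0.76), DMSO 10 h (8.33 ± 0.45) and GSI 10 h (8.12 ± 0.42), and for Ccnd1 GSI 4 h (9.18 ± 0.27), DMSO 4 h (9.003 ± 0.25), GSI 10 h (8.01 ± 0.79) and DMSO 10 h (7.51 ± 0.88). In each of these orders the neighbours at one time overlapped in their ranges.

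Several genes of the steps after cyclin D rose over the same interval on this scale, where 18.7% of all genes rose in DMSO and 19.1% in GSI. Of the 7 genes of the cyclin E and Cdk2 step 4 rose and none fell in either treatment, among them Ccne1, cyclin E1 (0.79 ± 0.19 in DMSO and 1.04 ± 0.15 in GSI), Ccnh, the cyclin partner of Cdk7 (0.84 ± 0.18 and 0.82 ± 0.13), and Cdc25a, the phosphatase that activates Cdk2 (0.57 ± 0.17 and 0.43 ± 0.16). Of 13 pocket protein and E2F genes 6 rose in DMSO with 0 falling, and 6 rose and 1 fell in GSI. Rbl1, the pocket protein p107, rose by 1.01 ± 0.19 and 0.95 ± 0.15, E2f1 by 0.64 ± 0.14 and 0.46 ± 0.12, and E2f6 by 0.63 ± 0.16 and 0.76 ± 0.14. Proliferation genes rose in 8 of 11 cases in DMSO and 9 of 11 in GSI, such as the replication helicase subunits Mcm5 (0.90 ± 0.14 and 0.69 ± 0.16) and Mcm2 (0.76 ± 0.16 and 0.75 ± 0.19).

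These rises depend on the scaling. As deposited, 0 of the cyclin E step genes rose and 3 fell in DMSO and 2 rose and 3 fell in GSI, 1 pocket protein or E2F gene rose in each treatment and 3 and 4 fell, and 1 proliferation gene rose and 1 fell in each. The medians of all 3 lists stayed between 0.38 and 0.76 under quantile, loess and median scaling and were between -0.15 and 0.15 as deposited. With loess and with median scaling 7 of 9 p53 targets fell in each treatment, as after quantile normalisation. As deposited 8 of 9 fell in DMSO and 9 of 9 in GSI. Most of all genes were called lower on that scale, so these last counts are no check of the fall.

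Genes that control the members moved in both directions. Of 10 turnover genes 2 rose and 1 fell in DMSO and 1 rose and 1 fell in GSI: Gsk3b, the kinase that marks cyclin D1 for degradation, fell by 0.81 ± 0.14 and 0.58 ± 0.16, Skp1, the adaptor of SCF ubiquitin ligases, rose by 0.31 ± 0.10 and 0.38 ± 0.11, and Fbxo31, an F-box protein reported to target cyclin D1, rose by 0.93 ± 0.18 in DMSO. Of 10 upstream regulators 1 rose and 3 fell in DMSO and 3 rose and 3 fell in GSI. Bmi1, the Polycomb protein that represses the Cdkn2a locus, fell by 0.71 ± 0.16 and 0.88 ± 0.10, and Foxo1 fell by 0.73 ± 0.20 and 0.80 ± 0.17, while Foxo3 rose by 0.86 ± 0.12 and 0.57 ± 0.16. Myc, an activator of Ccnd2 and Cdk4, fell by 0.31 ± 0.11 and 0.52 ± 0.15. None of the 3 other inhibitors (Cdkn1c, Cdkn2b and Cdkn3) passed in either treatment.

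The 4 h cultures were widely spread in Ccnd2 and Cdkn1a. Ccnd2 had an SD of 0.56 in DMSO and 0.58 in GSI, larger than 92.6% and 93.6% of genes, and Cdkn1a one of 0.73 and 0.44, beside a median SD over all genes of 0.19 in both groups. By pair mean, Ccnd2 was at 10.51 in run 1, 9.99 and 10.06 in run 2 and 8.68 to 9.74 in run 3, whereas Cdkn1a was at 10.10 in run 1, 10.12 and 10.38 in run 2 and 10.76 to 11.58 in run 3. Cdkn2c was at 5.72, at 5.59 and 5.69, and at 6.30 to 6.35. By pair mean the runs therefore did not overlap for Ccnd2, Cdkn1a or Cdkn2c. The same held for Cdk4, at 10.1993 in run 1, 10.0861 and 10.1979 in run 2 and 9.88 to 10.00 in run 3. Single arrays of different runs did overlap for Cdkn1a, Cdkn2c and Cdk4. The share of all genes separated by run was not counted, so this is not shown to be particular to these genes. Pair 6 was lowest in Ccnd2 and Ccnd3 and highest in Cdkn1a.

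**Figure D5:**
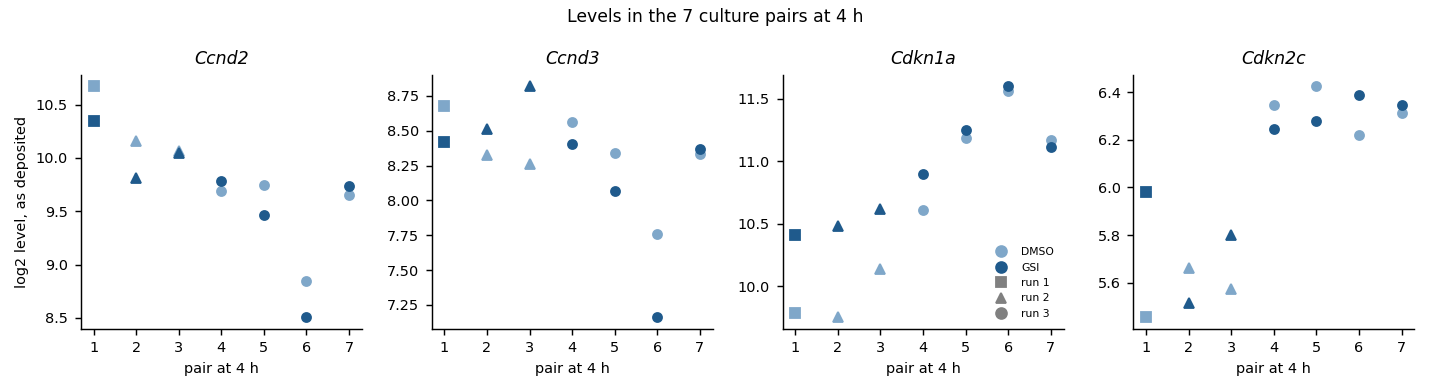
Levels (log2, as deposited, vertical axes) of Ccnd2, Ccnd3, Cdkn1a and Cdkn2c in the 7 pairs at 4 h (horizontal axes), DMSO light and GSI dark, with the symbol giving the run. By pair mean, run 3 is lower in Ccnd2 and higher in Cdkn1a and Cdkn2c than runs 1 and 2.

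After group means were subtracted, Ccnd2 and Ccnd3 varied together over the 22 arrays (r = 0.85, and 0.85 over the 4 h and 0.97 over the 10 h arrays). Cdkn1a and Cdkn1b had r = 0.66, and Ccnd2 and Cdk4 r = 0.61. Cdkn2c ran against Ccnd2 (r = -0.61) and Cdk4 (r = -0.60), the latter with -0.81 over the 4 h and -0.23 over the 10 h arrays. The relation of Ccnd2 with Cdkn1a had opposite signs at the 2 times, -0.86 at 4 h and 0.82 at 10 h. These are descriptions: partners share a culture, and arrays of a run share whatever the run stands for.

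By the same measure, the genes most like Ccnd2 were Zfp36l2 (r = 0.96), Laptm5 and Tecr (0.95 each), and those most like Cdkn1a were Fam13b, Bag3 (0.95 each) and Syde1 (0.94). For Ccnd1 they were Mir449b (0.89, as the probe annotation names it), Leng8 (0.86) and Fam120a (0.84), and for Ccnd3 Heatr3, Polr2a and Ptma (0.90 each). The 3 values for Ccnd1 were lower over the 4 h arrays alone, at 0.47, 0.54 and 0.72 in this order. Over the 10 h arrays they were 0.97, 0.90 and 0.89. Cdkn2c was followed by Lrrc2 (0.86), Wipi1 and Ehd1 (0.85 each), Cdk4 by Tmem161a (0.86), Pold2 (0.84) and Acd (0.83), and Cdkn1b by Pilrb2 (0.84), Efna5 and Gna11 (0.83 each). Cdkn2a was followed by Dtwd1 (0.82), 1600014C10Rik and Cd86 (0.80 each). Cdk6 and Cdkn2d had no gene above 0.77: the most alike were Mdm1 (0.76), Scd1 (0.75) and Psmd1 (0.72) for Cdk6 and Mau2 (0.74), Usp53 (0.73) and Alg12 (0.72) for Cdkn2d.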

How the data were processed

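Per the submitters' processing notes, the authors' deposited log2 values were made with RMA in Partek 6.6; whether both times were normalised together is not given in the sources used here. The table held 41345 probes on 22 arrays, of which 23521 named 1 gene, 1814 several and 16010 none, per the platform annotation; the probe with the highest mean stood for each of 22180 genes. GSI effects came from 1 limma 3.58.1 fit (R 4.3.3; lmFit, eBayes with trend) of all 22 arrays with the pair as a block, and time differences from fits of the 11 arrays of each treatment after quantile normalisation over the 22 arrays. Tests were 2-sided with Benjamini-Hochberg adjustment over all genes, called under 0.05. The number of arrays limits the precision. Pairs come from the study's design text: partners correlated in their deviations from group means at 0.22 to 0.87 (4 h) and 0.21 to 0.45 (10 h). The scripts were tested on simulated data. Named genes were the 10 members, Hes1, up to 5 genes per pathway, context or marker list and comparison by smallest p among those called (1 where none was), and the 3 most correlated genes per member; Kit, and uncalled sort markers given beside called ones, were named after their values were seen. The members and lists were chosen with earlier results of these data known. Alternatives were other scalings, a filter on dim genes, no trend, no block, one time alone, single runs, a random pair block and single samples left out.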

Additional observations from a re-analysis of the deposited data

Results flagged for a closer look

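Cdkn2d in the GSI arrays at 4 h had 1 array far from the others: pair 3 was at 7.27, whereas the other 6 lay between 6.81 and 6.99. This was 1 of 60 groups, of levels or of pair differences, examined for a distant value, and chance gives about 1 in 20.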

How the results depend on the processing

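GSI counts depended on the pair block: with no replicate block 0 genes passed at 4 h, 0 at 10 h, 2 in the mean of both times and 0 in the difference between times (1, 148, 71 and 4 with it), and 0 of the 10 genes passed. Counts also moved with the other choices: at 4 h to 2 with arrays of that time alone and to 148 within run 2 (1 of the 10 genes, Cdkn1a), and at 10 h to 91 with no intensity trend, 285 with genes above the median level, 37 with quantile and 63 with loess normalisation, 2 with arrays of that time alone, 0 within run 4 and 15 within run 5. The mean of both times gave 162 with genes above the median level and 43 with quantile normalisation, and the difference between times gave 0 with quantile and 2 with loess normalisation. Leaving out a pair in turn gave 1 to 3 genes at 4 h, 27 to 228 at 10 h, 20 to 136 in the mean and 0 to 7 in the difference; of the 10 genes, 0 to 1 passed at 10 h and 0 to 1 in the mean (Ccnd1, both without the 10 h pair 2). Between times, genes above the median level gave 4056 calls in DMSO and 4487 in GSI, and values as deposited 13348 and 14895, with 8 and 7 of the 10 genes called. Leaving out an array gave 3 to 5 of the 10 genes and 5970 to 7488 genes in DMSO, and 4 to 5 and 6371 to 8078 in GSI. Values as deposited turned the direction in DMSO for E2f1 (-0.028), E2f5 (-0.11), E2f2 (-0.089) and Skp1 (-0.037), and in GSI for Cdkn2a (-0.57), Cdkn2d (-0.51), Cdc25a (-0.014), E2f1 (-0.15), Foxo3 (-0.037) and Foxo4 (-0.15). Without a call on either scale it also turned Ccnd3 in both treatments (-0.49 and -0.23) and Cdk4 in DMSO (-0.15). That scale lacks the step that puts both times on one distribution; for the other changes the cause was not tested. Over all alternatives, 983 values of the 10 genes kept direction and side of the threshold, 16 gained a call, 3 lost one and 2 turned. Another 40 changed sign without a call in the main fit or in that alternative. The 10 genes had no second probe to try; the other probe of Mecom turned its time difference in DMSO to 1.14.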
